A study of Mus musculus with 3 samples.

Results

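The VEGF family is described here through 10 mouse genes: the ligands Vegfa, Vegfc and Pgf, the receptors Flt1, Kdr and Flt4, the co-receptors Nrp1 and Nrp2, and the angiogenic partners Angpt2 and Esm1. They were chosen by name, all 10 were found among the 32285 genes of the count tables, and each had at least 1 UMI (unique molecular identifier, a counted RNA molecule) in at least 1 library. The study profiled single cells of the cornea and limbus of mice labelled wt with droplet (10x Genomics) libraries, 1 mouse per group. The groups were uninjured, injured with nitrogen mustard (NM, an alkylating agent) and given saline, and injured with NM and given losartan, a blocker of the angiotensin II type 1 receptor. The labels describe removal of lens, retina, iris, trabecular tissue and most conjunctiva, then digestion with liberase and trypsin. The time after injury and the losartan dose and route are not given in the sources used here. All comparisons below are between 3 libraries: there is no replicate, no test across animals was possible, and all intervals are 95% intervals that cover counting error only.

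VEGF ligands are secreted proteins that bind receptor tyrosine kinases on endothelial cells, and the neuropilins act beside those receptors in endothelial and neuronal cells. The central cornea normally holds no blood or lymphatic vessels, while the limbus at its edge holds both, and new vessels growing in from the limbus are a known outcome of mustard injury. A soluble form of the Flt1 protein, which binds Vegfa without signalling, is known as part of the mechanism that keeps the cornea free of vessels. The counts are per gene and do not separate the soluble from the membrane form of Flt1, nor the Vegfa isoforms.

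The 10 genes lie on 7 chromosomes of mouse build GRCm38 (GENCODE M21 gene spans, the whole transcribed gene with exons and introns). Vegfa, the main ligand of blood vessel growth, lies at chr17:46016993-46032369 on the minus strand. Vegfc, the ligand of lymphatic vessel growth, lies at chr8:54077606-54187096 on the plus strand. Pgf, placental growth factor and a ligand of Flt1, lies at chr12:85166635-85177790 on the minus strand. Flt1, a receptor that binds Vegfa tightly and signals weakly, lies at chr5:147561604-147726011 on the minus strand. Kdr, the main signalling receptor of Vegfa, lies at chr5:75932827-75978458 on the minus strand. Flt4, the receptor of Vegfc, lies at chr11:49609263-49652739 on the plus strand. The co-receptors Nrp1, at chr8:128358604-128503363, and Nrp2, at chr1:62703285-62818695, are on the plus strand. Angpt2, a ligand of the endothelial receptor Tek, lies at chr8:18690263-18741562 on the minus strand. Esm1, a secreted proteoglycan known from the tip cells of growing vessels, lies at chr13:113209659-113218098 on the plus strand.

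The promoters of 4 genes that the results below turn on are shown as the 250 bases before the RefSeq transcription start (RefSeq sequences, GRCm38.p6), each 5′ to 3′ on the gene's own strand. Capitals mark the core of the hypoxia response element (ACGTG or GCGTG, the letters bound by hypoxia-inducible factors) and the GC box (GGGCGG), either on the strand shown or as the reverse complement. The windows are chr17:46032378-46032627 for Vegfa, chr5:147726012-147726261 for Flt1, chr5:75978456-75978705 for Kdr (these 3 on the minus strand) and chr13:113209409-113209658 for Esm1 on the plus strand.
Vegfa: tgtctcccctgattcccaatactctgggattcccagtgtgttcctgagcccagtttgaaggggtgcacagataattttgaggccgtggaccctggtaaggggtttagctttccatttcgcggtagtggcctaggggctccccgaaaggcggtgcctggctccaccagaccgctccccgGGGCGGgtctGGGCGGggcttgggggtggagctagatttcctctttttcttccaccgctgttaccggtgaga
Flt1: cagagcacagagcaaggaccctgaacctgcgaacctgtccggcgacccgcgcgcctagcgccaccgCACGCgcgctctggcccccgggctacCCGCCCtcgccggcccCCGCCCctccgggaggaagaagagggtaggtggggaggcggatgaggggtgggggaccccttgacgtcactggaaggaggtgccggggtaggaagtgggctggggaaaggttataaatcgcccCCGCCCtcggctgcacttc
Kdr: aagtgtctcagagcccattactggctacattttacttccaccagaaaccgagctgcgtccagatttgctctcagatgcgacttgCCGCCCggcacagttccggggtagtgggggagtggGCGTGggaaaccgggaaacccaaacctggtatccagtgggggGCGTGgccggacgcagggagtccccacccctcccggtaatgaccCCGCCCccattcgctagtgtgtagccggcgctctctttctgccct
Esm1: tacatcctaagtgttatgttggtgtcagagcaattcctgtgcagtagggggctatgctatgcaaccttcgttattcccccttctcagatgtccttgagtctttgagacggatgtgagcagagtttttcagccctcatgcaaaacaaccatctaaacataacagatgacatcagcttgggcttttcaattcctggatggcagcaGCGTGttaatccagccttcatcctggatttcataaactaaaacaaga

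The Vegfa window held no hypoxia core and 2 GC boxes, 72 to 67 and 62 to 57 bases before the start. A second RefSeq window of Vegfa, chr17:46025164-46025413 and not shown, held 2 hypoxia cores, 218 to 214 and 211 to 207 bases before its start, and 1 GC box. The Flt1 window held 1 hypoxia core, 184 to 180 bases before the start, and 3 GC boxes. The Kdr window held 2 hypoxia cores, 131 to 127 and 89 to 85 bases before the start, and 2 GC boxes. The Esm1 window held 1 hypoxia core, 47 to 43 bases before the start, and no GC box. Neither motif is rare: over 32851 mouse promoter windows of the same length, 38.6% held a hypoxia core and 32.7% a GC box on either strand. The AP-1 site TGANTCA, also searched, was held by 6.75% of all windows and by none of the 11 windows matched to members. A match is a description of letters, not of binding. RefSeq windows matched 9 of the 10 genes, with no entry for Angpt2. The motifs in the windows shown shared no bases with each other, and in the Nrp2 window 2 GC boxes shared 1 base.

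The libraries held 13270 (uninjured), 6814 (NM saline) and 5887 (NM losartan) barcodes, and 11233, 5800 and 4919 cells were kept, with 11582, 4116 and 6233 median UMIs per cell. Any 2 libraries shared 7 to 28 barcode sequences. Classes were rebuilt by clustering and named "-like" from marker genes, so they may differ from the study's own. The uninjured library was mostly epithelial-like (8607 cells, 76.6%), against 1169 (20.2%) in NM saline and 1933 (39.3%) in NM losartan, and no epithelial-like cluster held more than 1 cell from the other side of the divide between uninjured and injured libraries. Neutrophil-like cells numbered 0, 2970 and 1371, macrophage or monocyte-like cells 12, 527 and 333, and stromal fibroblast-like cells 432, 693 and 673, in the same order. Stromal-like cells of NM saline were shallow, with 2776 median UMIs against 10046 and 8866. The vessel classes were small: 34, 11 and 25 vascular endothelial-like cells, 83, 4 and 36 mural-like cells, and 6, 1 and 1 lymphatic endothelial-like cells. Vascular endothelial-like cells held 13 or 14 of 14 endothelial markers at 10 CPM or more (CPM, a gene's UMIs scaled to counts per 1e+06 UMIs of the class) in each library, and neutrophil-like cells all 15 of theirs. In the vascular endothelial-like cells of NM saline (29886 UMIs in all) 1 UMI is 33.5 CPM. The marker count there shows only that a marker had at least 1 UMI. Cells left unnamed made up 17.5%, 5.43% and 9.53%.

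**Figure D1:**
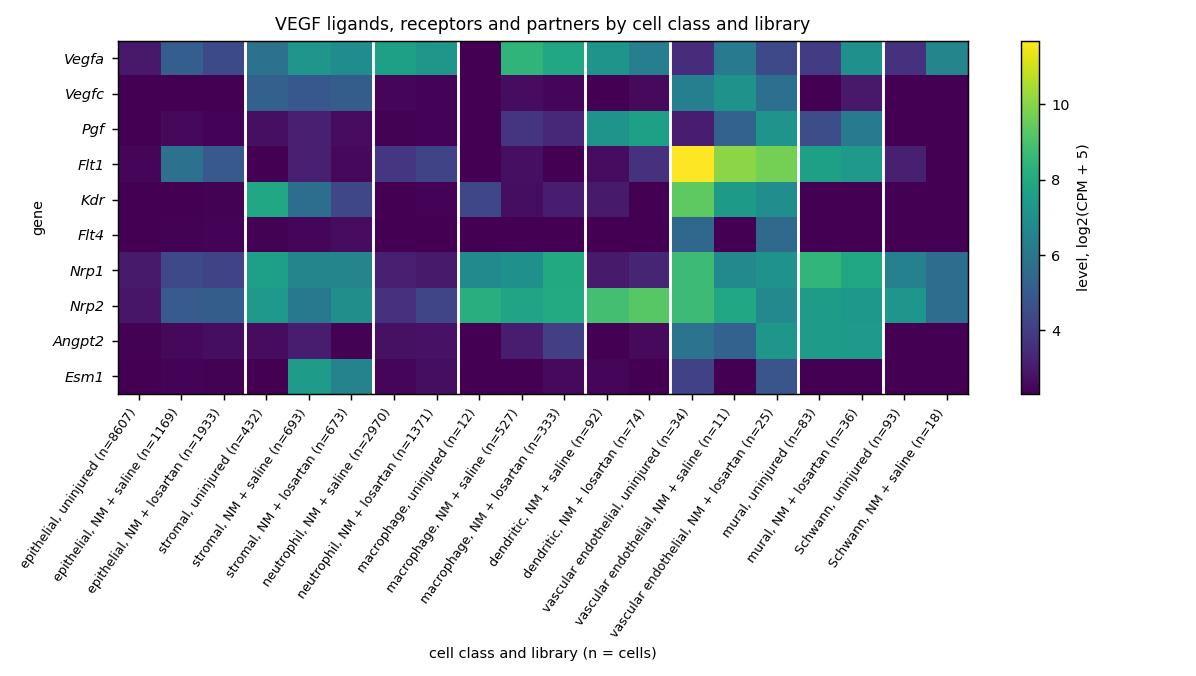
Level of the 10 genes as log2(CPM + 5) (colour) in each class and library with at least 10 cells. Flt1 and Kdr are highest in the vascular endothelial-like columns of every library, and Vegfa is brightest in the macrophage or monocyte-like and neutrophil-like columns of the injured libraries.

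Vegfa was low in the uninjured cornea and high in the injured ones. Over all kept cells it stood at 4.23 CPM in the uninjured library, 110 CPM in NM saline and 53.1 CPM in NM losartan. These totals move with the classes each library holds as well as with the level within a class. In the uninjured library, 59.1% (55.1 to 63.0) of its 621 UMIs were in epithelial-like cells and 34.6% (30.9 to 38.5) in stromal-like cells, which were 3.85% of the cells. In NM saline, 63.7% (62.6 to 64.7) of 8136 UMIs were in neutrophil, macrophage and dendritic-like cells together, and 16.5% in epithelial-like cells. In NM losartan, those myeloid classes held 32.7% (31.3 to 34.1) of 4522 UMIs, stromal-like cells 25.9% and epithelial-like cells 21.96%. These myeloid shares leave out subcluster 7.2, which scored highest for macrophage or monocyte markers but was left unnamed. It held 875 Vegfa UMIs in NM saline and 342 in NM losartan. Stromal-like cells were thus the class of highest Vegfa level only in the uninjured library, and macrophage or monocyte-like cells were highest in both injured ones.

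**Figure D2:**
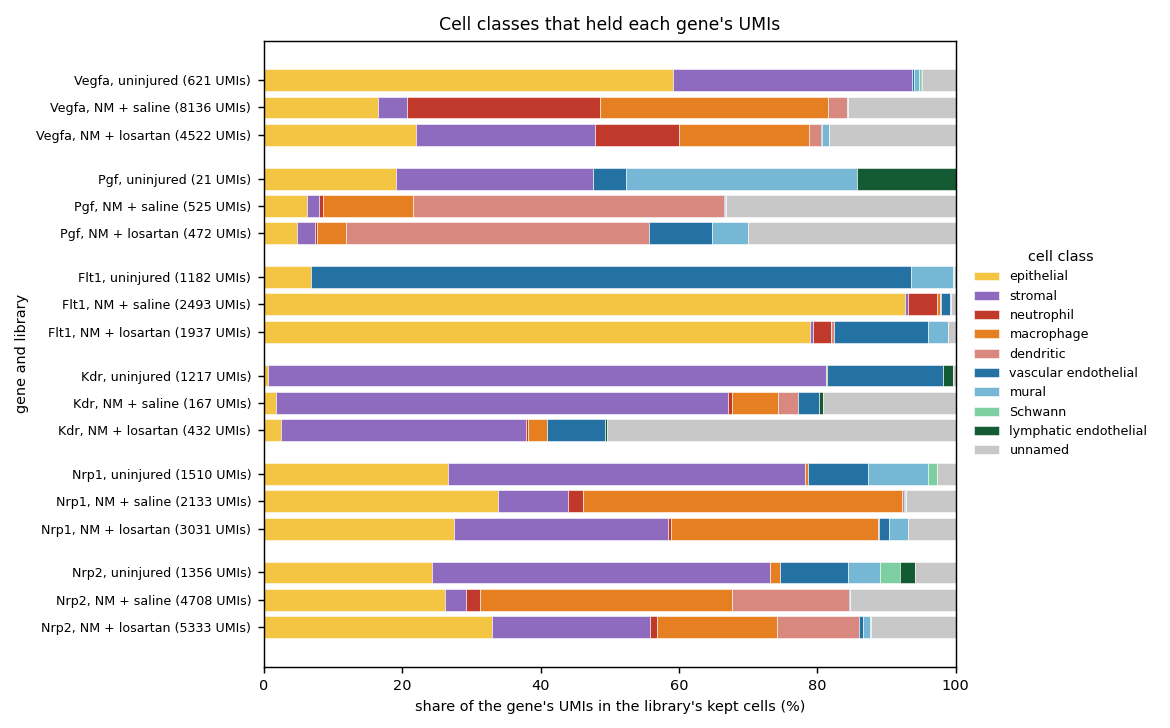
Share of each gene's UMIs (percent, horizontal axis) held by each class (colours) in each library, for Vegfa, Pgf, Flt1, Kdr, Nrp1 and Nrp2. Flt1 UMIs lie mostly in vascular endothelial-like cells in the uninjured library (86.6%) and mostly in epithelial-like cells in NM saline (92.7%).

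In epithelial-like cells Vegfa stood at 2.71 CPM (2.44 to 3.0, 367 UMIs) uninjured, 29.6 CPM (28.0 to 31.2, 1345 UMIs) in NM saline and 16.4 CPM (993 UMIs) in NM losartan. The 3 intervals do not overlap. NM saline was 10.9-fold (9.71 to 12.3) above uninjured, and NM losartan was 1.80-fold (1.66 to 1.95) below NM saline while still 6.07-fold above uninjured. The difference between the injured libraries was also seen within both deep epithelial-like clusters they share. In the cluster led by Serpine2 and Tpm1 (cluster 4), Vegfa was 44.9 CPM in NM saline and 24.3 CPM in NM losartan, and in the cluster led by Sprr2f and Sprr1a (cluster 6) 16.04 and 8.23 CPM. The ratios of NM losartan to NM saline were 0.541 (0.490 to 0.596) and 0.513 (0.434 to 0.606). Among the uninjured clusters, the Gpha2 limbal cluster (cluster 15) stood apart at 19.6 CPM (15.9 to 23.9, 97 UMIs, 430 cells), while the other 6 lay between 1.11 and 3.39 CPM. In the injured epithelium Vegfa stood at 8.70% (NM saline) and 6.91% (NM losartan) of its level in macrophage or monocyte-like cells, whereas macrophage markers stood at 0.0926% and 0.0392%. 

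**Figure D3:**
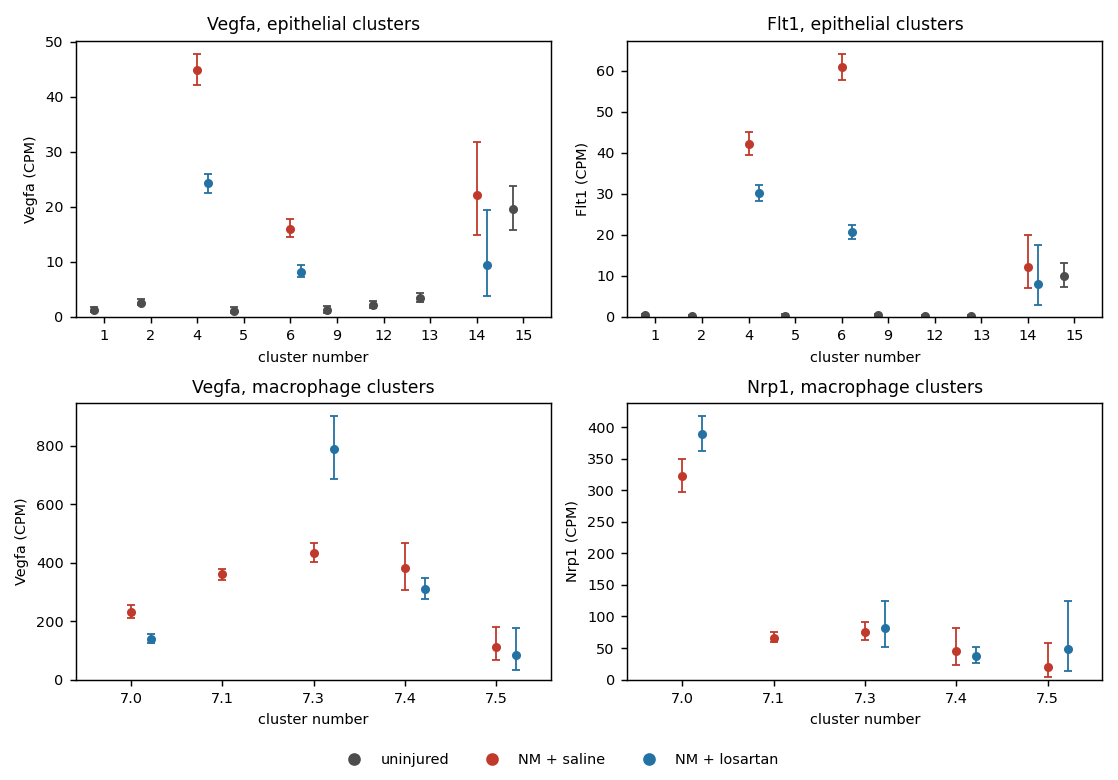
CPM with 95% Poisson intervals (bars) of Vegfa and Flt1 in epithelial-like clusters, and of Vegfa and Nrp1 in macrophage or monocyte-like clusters, by library, for clusters with at least 20 cells. In cluster 4 and cluster 6 both genes are lower in NM losartan than in NM saline, and Nrp1 is highest in cluster 7.0.

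In stromal-like cells, which include the keratocytes, Vegfa stood at 51.7 CPM (45.1 to 59.1, 215 UMIs) uninjured, 143 CPM (336 UMIs) in NM saline and 114 CPM (107 to 121, 1172 UMIs) in NM losartan. NM saline was 2.77-fold (2.33 to 3.30) above uninjured, and NM losartan stood at 0.794 (0.703 to 0.899) of NM saline. Clusters made up the class unequally in the libraries. Cluster 16 held 372 of the 432 uninjured cells, cluster 8 held 678 of the 693 NM saline cells, and the Mmp3 and Timp1 cluster (cluster 18) held 324 of the 673 NM losartan cells. Within cluster 8, the one present in all 3 libraries, Vegfa was 22.2 CPM (3 UMIs), 118 CPM and 77.0 CPM. Within cluster 18 it was 271 CPM in 14 NM saline cells and 121 CPM in the NM losartan cells. All 14 NM saline cells were in subcluster 18.2, where NM losartan (50 cells) stood at 322 CPM, so within the subcluster the lower NM losartan level was not seen. Vegfa in injured stromal-like cells was at 74.5% (NM saline) and 74.9% (NM losartan) of its level in neutrophil-like cells, against 0.617% and 0.141% for neutrophil markers.

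Macrophage or monocyte-like and neutrophil-like cells held the highest Vegfa levels among the named classes of at least 10 cells in both injured libraries. Macrophage or monocyte-like cells stood at 340 CPM (327 to 353, 2682 UMIs) in NM saline and 238 CPM (222 to 255, 851 UMIs) in NM losartan, a ratio of 0.701 (0.648 to 0.758). The 12 uninjured cells of the class held 0 Vegfa UMIs of 67248, and NM saline was at least 7.61-fold above a level of 3 counts there. Subclusters differed in both level and direction, so the class ratio also moves with its make-up. The subcluster led by Ccl8 and C1qa (7.0) stood at 232 CPM in NM saline and 139 CPM in NM losartan, a ratio of 0.599 (0.513 to 0.698). The subcluster led by Pf4 and Ccl24 (7.3, 112 and 30 cells) went the other way, at 434 and 787 CPM, a ratio of 1.82 (1.55 to 2.12). Both 7.0 and 7.3 had C1qa, C1qb and C1qc among their leading genes. The Mmp12 and Spp1 subcluster (7.1), at 360 CPM, had 238 cells in NM saline and 7 in NM losartan. Each cell thinned to 1500 UMIs gave a class ratio of 0.844 (0.680 to 1.04), whose interval includes 1.

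Neutrophil-like cells stood at 193 CPM (185 to 201, 2267 UMIs) of Vegfa in NM saline and 152 CPM (140 to 165, 549 UMIs) in NM losartan, a ratio of 0.789 (0.717 to 0.867). Within clusters the lower NM losartan level was not seen. In the Ccl3 and Ccl4 cluster (cluster 0, 2150 and 284 cells) Vegfa was 228 and 226 CPM, a ratio of 0.993 (0.847 to 1.16). In the Retnlg and S100a8 cluster (cluster 3, 820 and 1087 cells) it was 99.9 and 131 CPM, a ratio of 1.31 (1.13 to 1.53). The lower class level in NM losartan thus came with a larger part of the class in the lower cluster. Dendritic-like cells (92 and 74) stood at 137 CPM in NM saline and 74.7 CPM in NM losartan, 1.84-fold lower (1.42 to 2.41).

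Vegfc, the lymphatic ligand, was mainly a stromal transcript. Stromal-like cells held 83.5% of 158 UMIs in the uninjured library, 48.0% of 123 in NM saline and 67.1% of 440 in NM losartan. Its stromal level was 31.8, 25.2 and 28.7 CPM in that order. The ratio of NM saline to uninjured was 0.793 (0.573 to 1.09) and that of NM losartan to NM saline 1.14 (0.858 to 1.53), so neither difference was larger than counting error. Vascular endothelial-like cells had the highest Vegfc level in each library, at 76.9 (24 UMIs), 134 (4 UMIs) and 48.2 CPM (15 UMIs).

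Pgf was close to absent in the uninjured cornea, with 21 UMIs over all kept cells, and was a dendritic transcript after injury. Dendritic-like cells held 45.0% (40.6 to 49.3) of the 525 Pgf UMIs of NM saline while making up 1.59% of the cells, and 43.9% of the 472 UMIs of NM losartan. Their level was 140 CPM (236 UMIs) in NM saline and 196 CPM (207 UMIs) in NM losartan, a ratio of 1.40 (1.15 to 1.69). The uninjured library had 1 dendritic-like cell, so no uninjured level can be given. The subcluster led by Ccr7 (20.2), a receptor of migrating dendritic cells, had the least Pgf of the 3 dendritic subclusters in both libraries, at 42.9 and 96.5 CPM. The other two stood at 180 and 139 CPM and at 180 and 335 CPM. Much of the remaining Pgf was in subcluster 7.2, left unnamed because MHC class II genes lead it, at 52.7 and 116 CPM.

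The class that held most Flt1 differed between the uninjured and the injured libraries. In the uninjured cornea 86.6% (84.6 to 88.5) of its 1182 UMIs were in the 34 vascular endothelial-like cells. In NM saline 92.7% (91.7 to 93.7) of 2493 UMIs, and in NM losartan 79.0% (77.1 to 80.8) of 1937 UMIs, were in epithelial-like cells. Epithelial-like cells stood at 0.598 CPM (81 UMIs) uninjured, 50.8 CPM (2312 UMIs) in NM saline and 25.3 CPM (1530 UMIs) in NM losartan. NM saline was 84.9-fold (68.1 to 107) and NM losartan 42.4-fold (33.9 to 53.6) above uninjured. NM losartan was 2.01-fold (1.88 to 2.14) below NM saline.

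Epithelial Flt1 was concentrated in few cells. In NM saline 36 of the 1169 epithelial-like cells held 50% of its UMIs, and 1 cell held 102. In NM losartan 32 of the 1933 cells held 50%, and the highest cell held 43. By cluster, Flt1 was 42.1 CPM in NM saline and 30.2 CPM in NM losartan in cluster 4, a ratio of 0.717 (0.653 to 0.787). In the Sprr cluster 6 it was 60.8 and 20.6 CPM, 2.96-fold lower (2.69 to 3.26). The uninjured Gpha2 limbal cluster held 9.88 CPM (7.31 to 13.1, 49 UMIs) against 0.0945 to 0.368 CPM in the other uninjured clusters. Flt1 in the injured epithelium was 4.75% (NM saline) and 2.98% (NM losartan) of the endothelial level, where the endothelial markers summed to 0.253% and 0.191% and the highest single marker reached 2.41% and 0.359%. Neutrophil-like cells had 8.92 and 14.1 CPM of Flt1, 0.833% and 1.66% of the endothelial level. The endothelial markers summed to 1.00% and 0.678% there, and the highest single marker reached 3.75% and 2.19%. In neutrophil cluster 3 Flt1 stood at 19.7 CPM (64 UMIs) in NM saline and 16.6 CPM (47 UMIs) in NM losartan. In cluster 0 it stood at 4.81 CPM (41 UMIs) and 5.09 CPM (4 UMIs). Whether this Flt1 was the neutrophil-like cells' own was not tested.

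Kdr was, apart from the endothelium, a transcript of the uninjured stroma. Stromal-like cells held 80.7% of its 1217 UMIs in the uninjured library, 65.3% of 167 in NM saline and 35.4% of 432 in NM losartan. Their level was 236 CPM (982 UMIs), 46.5 CPM (109 UMIs) and 14.9 CPM (153 UMIs) in that order. NM saline was 5.08-fold (4.17 to 6.25) below uninjured, and NM losartan was 3.13-fold (2.43 to 4.03) below NM saline. The uninjured signal was spread over the class, with 67 of 432 cells holding 50% of the UMIs and 288 cells with at least 1. It stood at 36.1% of the endothelial Kdr level, against 0.141% for endothelial markers in the same cells.

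The stromal clusters differed in Kdr. Cluster 16 held 239 CPM (958 UMIs) in the uninjured library and 0 Kdr UMIs in its 38 NM losartan cells. Cluster 8 held 178, 51.2 and 53.2 CPM in the uninjured, NM saline and NM losartan libraries. Within it NM saline was 3.46-fold (2.12 to 5.45) below uninjured, but NM losartan stood at 1.04 (0.694 to 1.52) of NM saline. The lower stromal Kdr of NM losartan was therefore not seen inside cluster 8, and it came with 324 stromal-like cells of cluster 18, at 12.6 CPM. Both injured libraries also hold subcluster 18.2. There Kdr stood at 25.5 CPM in 14 NM saline cells (10 UMIs, all in 1 cell) and 3.41 CPM in 50 NM losartan cells (4 UMIs). In NM losartan 50.5% of all Kdr UMIs lay in unnamed cells, which stood at 39.7 CPM (34.6 to 45.4). Unnamed cells of the uninjured library stood at 0.657 CPM but lay mostly in clusters 10 and 11, so these are mostly different cells. Subclusters 17.0 and 18.5 scored highest for stromal markers but were left unnamed. They held Kdr at 48.2 and 51.1 CPM in NM losartan, outside the stromal levels above. Subclusters 21.0 and 21.1, unnamed with the same highest score, held 1 Kdr UMI each there.

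**Figure D4:**
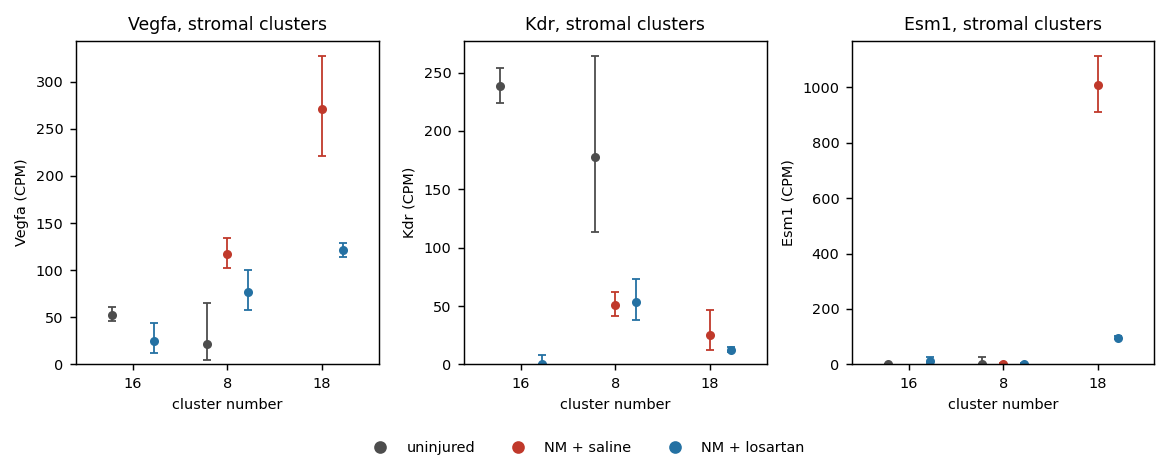
CPM with 95% Poisson intervals of Vegfa, Kdr and Esm1 in the stromal fibroblast-like clusters 16, 8 and 18 by library (at least 10 cells). Kdr is highest in the uninjured library, and Esm1 is highest in cluster 18, at 1008 CPM in NM saline and 96.9 CPM in NM losartan, with 2 UMIs in cluster 8 of NM saline and 5 UMIs (11.1 CPM) in cluster 16 of NM losartan.

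Flt4, the Vegfc receptor, was sparse everywhere, with 44, 18 and 58 UMIs over the kept cells of the uninjured, NM saline and NM losartan libraries. In the uninjured library 45.5% of these UMIs were in the 6 lymphatic endothelial-like cells (20 UMIs, 753 CPM) and 27.3% in vascular endothelial-like cells. The same 6 lymphatic endothelial-like cells held 24 UMIs of the lymphatic transcription factor Prox1 and 58 of Lyve1. They also held 31 Nrp2 UMIs, 21 of them in 1 cell, and 19 Kdr UMIs, with no Flt1 or Nrp1 UMI. Each injured library had 1 such cell, so no level after injury is given.

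Nrp1 and Nrp2 were both higher in the epithelium of both injured libraries and both lower in the stroma of NM saline than in the uninjured library. In the stroma of NM losartan Nrp1 was lower at 1.5-fold and Nrp2 was not. In epithelial-like cells Nrp1 stood at 2.96 CPM (401 UMIs), 15.8 CPM (721 UMIs) and 13.8 CPM (831 UMIs), 5.35-fold (4.73 to 6.06) higher in NM saline than uninjured. The ratio of NM losartan to NM saline was 0.869 (0.785 to 0.961). Nrp2 in epithelial-like cells stood at 2.44 CPM (330 UMIs), 27.0 CPM (1230 UMIs) and 29.1 CPM (1759 UMIs), 11.1-fold (9.82 to 12.6) higher in NM saline than uninjured. Its ratio of NM losartan to NM saline was 1.08 (1.00 to 1.16), and neither neuropilin differed 1.5-fold between the injured libraries. Of the 10 genes, 4 were measured in epithelial-like cells (at 10 CPM or more in a library compared), which are these 2 with Vegfa and Flt1.

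A gene is counted below as higher or lower where its CPM + 5 differed at least 1.5-fold between libraries, a description of size, and the pseudocount of 5 understates the change of low genes. All 4 were counted higher in NM saline than uninjured, where 19.9% of all genes measured in this class were higher and 17.2% lower. Their median log2 ratio was 2.14, against 0.03 for all measured genes. All 4 were below 10 CPM in the uninjured library, so they were measured only through the injured ones and the count supports nothing. Between the injured libraries 2 of 4, Vegfa and Flt1, were lower in NM losartan (5.6% of all measured genes) and none was higher (1.97%), with a median of −0.42 against −0.08. Against the uninjured library 4 of 4 were higher in NM losartan (15.2%). The other 6 genes stood below 2 CPM in all 3 libraries in epithelial-like cells, with Angpt2 the highest of them at 1.41 CPM in NM losartan.

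In stromal-like cells Nrp1 stood at 188 CPM uninjured, 93.03 CPM in NM saline and 91.3 CPM in NM losartan, 2.02-fold (1.73 to 2.35) lower in NM saline than uninjured and at a ratio of 0.981 (0.846 to 1.14) between the injured libraries. Nrp2 stood at 159, 63.6 and 119 CPM, 2.50-fold (2.09 to 3.01) lower in NM saline than uninjured and 1.86-fold (1.57 to 2.22) higher in NM losartan than NM saline. Within the clusters both injured libraries hold, the higher NM losartan level of Nrp2 was not seen: it stood at 60.6 and 46.2 CPM in cluster 8, a ratio of 0.763 (0.502 to 1.13), and at 79.1 and 67.3 CPM in subcluster 18.2. Under median-of-ratios scaling the centre of all genes in this class moved by −0.45 (NM saline against uninjured) and 0.36 (NM losartan against NM saline) on the log2 scale, and these Nrp1 and Nrp2 differences between NM saline and the other library then no longer reached 1.5-fold (Nrp1 against uninjured, Nrp2 between the injured libraries). Of the 6 genes measured in stromal-like cells, 2 (Vegfa, Esm1) were higher in NM saline than uninjured, where 12.9% of all measured genes were higher, and 3 (Kdr, Nrp1, Nrp2) were lower (36.2%). Between the injured libraries 1 of 6 (Nrp2) was higher in NM losartan (33.8%) and 2 (Kdr, Esm1) were lower (18.1%). Against uninjured, NM losartan had 2 higher (16.1%) and 2 lower (22.9%). Esm1 had 0 UMIs in the uninjured class, so against uninjured it was measured only through the injured libraries and could not be counted lower. Median depth per cell differed between these libraries (10046, 2776 and 8866 UMIs), and its part in the result was not tested.

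In macrophage or monocyte-like cells Nrp1 stood at 125 CPM (985 UMIs) in NM saline and 254 CPM (909 UMIs) in NM losartan, 2.04-fold (1.86 to 2.23) higher. Subcluster 7.0 carried most of it, at 323 and 389 CPM, a ratio of 1.21 (1.08 to 1.35), against 19.9 to 82.4 CPM in the other named subclusters. This subcluster had 98 of 527 cells in NM saline and 161 of 333 in NM losartan, so the class difference came with a larger share of this subcluster. Nrp2 in the class stood at 218 and 259 CPM, a ratio of 1.19 (1.10 to 1.29). Among the 4 genes measured there, 2 (Nrp1, Angpt2) were higher in NM losartan, where 7.59% of all measured genes were higher, and 0 were lower (5.48%). Angpt2 (3.17 and 12.0 CPM) was measured only through NM losartan, so it could not be counted lower. Against the 12 uninjured cells, NM saline had 1 of 4 higher (29.9%) and 1 lower (34.9%), and NM losartan 3 of 5 higher (31.7%) and 1 lower (32%), counts that rest on 0 to 20 UMIs per gene in the uninjured cells.

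Dendritic-like cells had the highest Nrp2 level of both injured libraries, at 469 CPM in NM saline and 599 CPM in NM losartan, a ratio of 1.28 (1.15 to 1.42). Within them the Ccr7 subcluster, which held the least Pgf, held the most Nrp2, at 799 and 1154 CPM, and the least Vegfa, at 8.18 and 4.60 CPM. Of the 3 genes measured in dendritic-like cells, 0 were higher in NM losartan (8.87% of all measured genes) and 1 (Vegfa) was lower (8.69%). In neutrophil-like cells 1 of 3 (Nrp2, at 7.65 and 14.4 CPM) was higher in NM losartan (12.7%) and 0 were lower (6.82%). This Nrp2 was measured only through NM losartan, so it could not be counted lower. Macrophage markers summed there to 3.54% (NM saline) and 2.58% (NM losartan) of their macrophage level. The highest single marker reached 20.5% and 19.96%. Macrophage or monocyte-like cells held Nrp2 at 218 and 259 CPM. Whether this Nrp2 was the neutrophil-like cells' own was not tested. Schwann-like cells, the glia of corneal nerves, held Nrp2 at 146 CPM (38 UMIs) and Nrp1 at 80.8 CPM (21 UMIs) in the uninjured library (93 cells). In the 18 such cells of NM saline 1 of 3 measured genes was higher (22.7%) and 2 were lower (60.5%), on 1 or 2 UMIs per gene.

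Esm1 was a stromal transcript of the injured libraries. Stromal-like cells held 0 UMIs uninjured, 397 UMIs (169 CPM) in NM saline and 890 UMIs (86.4 CPM) in NM losartan. Against the level of 3 counts over the uninjured class, NM saline was at least 235-fold and NM losartan at least 120-fold higher. NM losartan was 1.96-fold (1.74 to 2.21) below NM saline. Very few cells carried the NM saline value. Of its 397 UMIs, 395 were in the 14 cells of subcluster 18.2, led by Timp1 and Esm1 itself (so its level there is a description), and 1 cell held 187. In NM losartan 119 stromal-like cells had an Esm1 UMI, and the 50 cells of subcluster 18.2 stood at 400 CPM (470 UMIs). The same subcluster had the most Vegfa of the stroma, at 271 CPM in NM saline and 322 CPM in NM losartan, against 61.0 to 123 CPM in the other subclusters of cluster 18 in NM losartan.

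Angpt2, which opposes or supports Tek signalling by context, was highest in mural-like cells among the named classes of at least 10 cells in the uninjured and NM losartan libraries. Mural-like cells held 46.7% of its 137 UMIs in the uninjured library, while in NM saline epithelial-like cells held 32.6% and macrophage or monocyte-like cells 26.3% of 95 UMIs. In NM losartan epithelial-like cells held 30.8%, mural-like cells 20.7% and vascular endothelial-like cells 17.0% of 276 UMIs. Mural-like cells, the pericytes and smooth muscle cells of vessels, stood at 171 CPM (64 UMIs) uninjured and 161 CPM (57 UMIs) in NM losartan, a ratio of 0.941 (0.647 to 1.37). NM saline had 4 mural-like cells and is not compared. In macrophage or monocyte-like cells Angpt2 stood at 3.17 CPM (25 UMIs) in NM saline and 12.0 CPM (43 UMIs) in NM losartan, 3.80-fold (2.27 to 6.49) higher. Within subcluster 7.0, whose share of the class was larger in NM losartan, Angpt2 had 10 and 24 UMIs, a ratio of 2.08 (0.958 to 4.87) whose interval includes 1.

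Vascular endothelial-like cells of the injured libraries held less Flt1 and Kdr than those of the uninjured library. The 14 endothelial markers were also lower in the same cells, at a summed 10853 CPM uninjured, 5822 CPM in NM saline and 6283 CPM in NM losartan, and the part of this in the receptor values was not tested. Flt1 stood at 3282 CPM (3084 to 3490, 1024 UMIs) uninjured, 1071 CPM (732 to 1512, 32 UMIs) in NM saline and 849 CPM (750 to 958, 264 UMIs) in NM losartan. NM saline was 3.07-fold (2.16 to 4.51) and NM losartan 3.87-fold (3.37 to 4.44) below uninjured, and the ratio between the injured libraries was 0.793 (0.548 to 1.18). Flt1 in the endothelium and Flt1 in the epithelium thus differed from the uninjured library in opposite directions. Kdr stood at 654 CPM (204 UMIs) uninjured, 167 CPM (5 UMIs, 4 of them in 1 cell) in NM saline and 116 CPM (36 UMIs) in NM losartan. NM saline was 3.91-fold (1.65 to 12.2) and NM losartan 5.65-fold (3.95 to 8.29) below uninjured. The ratio of NM losartan to NM saline was 0.692 (0.271 to 2.26) and became 2.23 without the cell of each library with the most Kdr, so these cells give no direction between the injured libraries.

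The neuropilins were also lower in this class. Nrp1 stood at 420 CPM (131 UMIs), 100 CPM (3 UMIs) and 135 CPM (42 UMIs), 3.11-fold (2.18 to 4.51) lower in NM losartan than uninjured. Nrp2 stood at 426 CPM (133 UMIs), 234 CPM (7 UMIs) and 99.7 CPM (31 UMIs), 4.28-fold (2.88 to 6.54) lower in NM losartan than uninjured. Flt4 had 12, 0 and 13 UMIs. Of the genes higher in NM losartan, Angpt2 stood at 54.5 CPM (17 UMIs) uninjured, 33.5 CPM (1 UMI) in NM saline and 151 CPM (47 UMIs) in NM losartan, 2.77-fold (1.56 to 5.15) above uninjured. Pgf had 1, 1 and 43 UMIs (3.21, 33.5 and 138 CPM), with the 43 UMIs in 6 cells and 18 in 1 of them. Esm1 had 4, 0 and 7 UMIs, 6 of the 7 in 1 cell.

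In this class 3 of the 10 genes were counted higher and 7 lower in NM saline than uninjured, where 32.9% and 43.7% of all measured genes were. The higher genes were Vegfa, Pgf and Vegfc, on 2, 1 and 4 UMIs in NM saline and 2, 1 and 24 uninjured. Of the lower genes, Flt4 and Esm1 had 0 UMIs in NM saline and Angpt2 had 1. In NM saline 1 UMI of this class is 33.5 CPM, so counts against that library move with its depth. In NM losartan 4 were higher and 5 lower than uninjured (36.3% and 22.9%), and 4 higher and 3 lower than in NM saline (48.3% and 29.7%). Against uninjured, Vegfa and Pgf (6.41 and 3.21 CPM there) were measured only through the injured libraries and could not be counted lower. Between the injured libraries the same holds for Flt4 and Esm1, with 0 UMIs in NM saline. With 11 to 34 cells these background shares are large. Median-of-ratios scaling moved the centre of all genes of this class by 0.21 (NM saline against uninjured), −0.11 (NM losartan against NM saline) and 0.20 (NM losartan against uninjured) on the log2 scale, less than the differences given for Flt1, Kdr and the neuropilins against uninjured. One NM saline cell held 415 of the 418 UMIs of 5 neutrophil markers in the class, and one NM losartan cell held 588 of the 621 UMIs of 3 mural markers. Without these 2 barcodes Flt1 was 1576 CPM in NM saline and 786 CPM in NM losartan, Kdr 246 and 139 CPM, Angpt2 139 CPM and Pgf 135 CPM in NM losartan, all on the same side of the uninjured level. Endothelial Esm1 was 4.09 CPM in NM losartan without the mixed barcode. All uninjured cells were in one endothelial subcluster (19.3) and all NM losartan cells in another (19.2), so subcluster and library cannot be told apart between these 2 libraries. The leading genes of 19.2 included the lymphatic marker Ccl21a and the mural markers Acta2 and Tagln, beside the endothelial markers Pecam1, Egfl7, Cdh5 and Emcn. Subcluster 19.2 also held the 6 uninjured lymphatic endothelial-like cells. The part of this in the receptor values was not tested. NM saline had 8 cells in 19.2 and 4 in 19.3, 1 of these 12 being lymphatic endothelial-like.

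**Figure D5:**
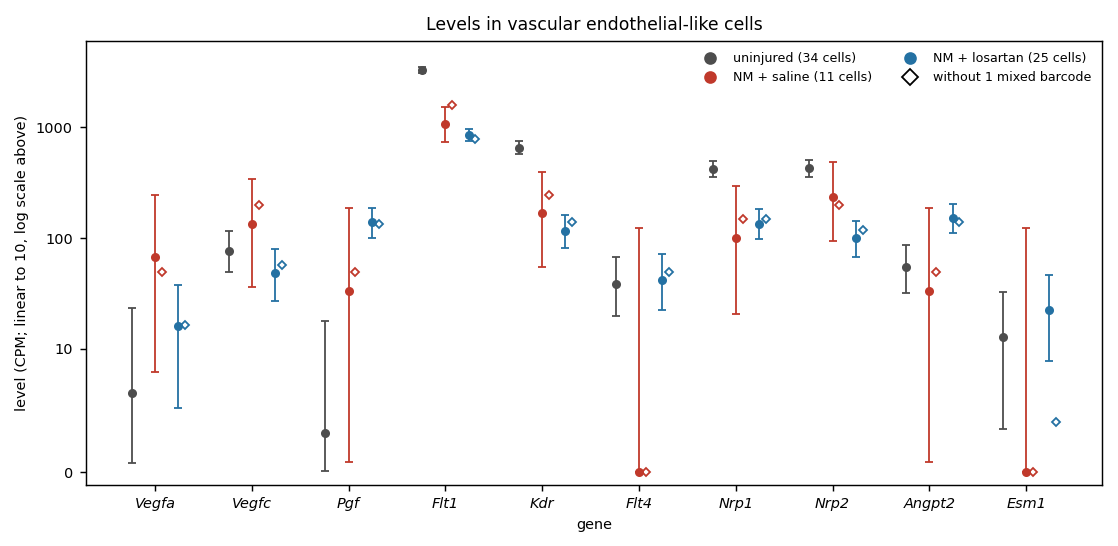
CPM of the 10 genes in vascular endothelial-like cells (34 uninjured, 11 NM saline, 25 NM losartan) with 95% Poisson intervals. The axis is linear to 10 and logarithmic above, and diamonds show the values without the 1 mixed barcode of each injured library. Flt1, Kdr, Nrp1 and Nrp2 are highest in the uninjured library, and Angpt2 and Pgf in NM losartan.

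In mural-like cells, compared between uninjured (83 cells) and NM losartan (36 cells), 6 of the 10 genes were measured. Of the NM losartan cells 35 were in a subcluster (19.4) that held no uninjured cell, so subcluster and library cannot be told apart. Of the 6 genes, 2 (Vegfa, Pgf) were higher in NM losartan, where 30.1% of all measured genes were, and 0 were lower (21.2%). Vegfa stood at 10.7 CPM (4 UMIs) and 124 CPM (44 UMIs), 11.6-fold (4.23 to 44.5) higher, with 29 of the 44 UMIs in 1 cell. Pgf stood at 18.7 CPM (7 UMIs) and 67.7 CPM (24 UMIs), with 17 of the 24 UMIs in 1 cell. Nrp1 stood at 350 and 234 CPM, a ratio of 0.669 (0.502 to 0.888). Flt1 stood at 195 and 158 CPM, a ratio of 0.810 (0.562 to 1.16), which was 5.94% and 18.6% of the endothelial level. The endothelial markers summed to 3.78% and 5.91% there, and the highest single marker reached 31.5% and 41.6%. The 73 uninjured Flt1 UMIs lay in the subcluster led by Rgs5 and Timp3 (61 cells, 286 CPM). The subcluster led by Acta2 and Tagln (22 uninjured cells) held 0. In subcluster 19.4 of NM losartan 20 of the 35 cells had a Flt1 UMI. Whether this Flt1 was the mural-like cells' own was not tested. Mural markers summed to 23621 CPM uninjured and 5612 CPM in NM losartan, and 17 stromal markers to 3209 and 5762 CPM in the same cells. The part of this marker shift in the mural values was not tested.

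A list of 53 other angiogenic genes was compared between the same libraries, beside the background shares already given for each class. In epithelial-like cells 25 were measured between NM saline and uninjured, with 12 higher and 9 lower. The highest were Igfbp3, a secreted binding protein of insulin-like growth factors (0.369 and 632 CPM), Col18a1, whose collagen chain is the source of endostatin (0.591 and 138 CPM, 234-fold, 188 to 296), and Sema3c, a secreted semaphorin (10.3 and 68.2 CPM). The lowest were Epas1, a hypoxia-inducible factor (181 and 9.32 CPM, 19.5-fold lower), the matricellular protein Ccn1 (150 and 23.9 CPM) and the vasodilator peptide Adm (191 and 54.7 CPM). Between NM losartan and NM saline 3 were higher and 2 lower of 25. Adm was 102 CPM in NM losartan (1.87-fold, 1.79 to 1.96), Ccn1 41.6 CPM and the proteoglycan Dcn 14.3 CPM against 6.92 CPM. The protease Adamts1 was 2.47-fold lower (37.4 and 15.2 CPM), Igfbp3 1.65-fold lower at 383 CPM, and Angptl4 stood at 15.2 and 8.78 CPM, short of 1.5-fold on CPM + 5. Against uninjured, NM losartan had 11 higher and 8 lower of 24.

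In stromal-like cells 32 of the list were measured between NM saline and uninjured, with 6 higher and 16 lower. Plaur, the urokinase receptor, was highest (2.41 and 79.4 CPM, 33.0-fold), followed by Igfbp3 (3.61 and 45.7 CPM) and Col18a1 (0.963 and 17.9 CPM). Thbs2, an inhibitor of angiogenesis, was 4.79-fold lower (772 and 161 CPM), the growth factor Pdgfa 3.67-fold lower and Ccn1 3.27-fold lower. Between NM losartan and NM saline 21 were higher and 6 lower of 33. The chemokine Cxcl12 stood at 5.12 and 58.6 CPM (11.4-fold, 6.50 to 22.3), Lama4 of vessel basement membrane at 11.1 and 71.7 CPM, and Thbs2 at 161 and 979 CPM. Sema3e was 6.55-fold lower (71.3 and 10.9 CPM), the inhibitor Serpinf1 3.40-fold lower (3097 and 912 CPM) and Vhl 2.51-fold lower. The share of cluster 8 and cluster 18 cells differed between these libraries, and its part in these values was not tested.

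In macrophage or monocyte-like cells 4 of 20 were higher and 7 lower in NM losartan than NM saline. The lowest were Sema3c (109 and 7.83 CPM, 13.9-fold lower), the hypoxia-inducible prolyl hydroxylase Egln3 (67.2 and 13.2 CPM, 5.11-fold lower) and the Notch ligand Jag1 (103 and 33.0 CPM, 3.13-fold lower). The highest were Timp3 (3.80 and 16.8 CPM), Dcn (18.7 and 61.0 CPM) and the ligand Vegfb (12.4 and 29.7 CPM, 2.39-fold). Dcn is itself a stromal marker, and 4 stromal markers summed stood in these cells at 0.0478% of their stromal level in NM saline and 0.318% in NM losartan. In neutrophil-like cells 4 of 12 were higher and 0 lower. Hgf stood at 13.8 and 29.9 CPM, Dcn at 21.9 and 44.0 CPM (stromal markers at 0.0633% and 0.274%) and the chemokine receptor Cxcr4 at 321 and 529 CPM. Thbs1, Plaur and Egln1 were the lowest 3 by ratio and did not reach 1.5-fold (Thbs1 6331 and 4668 CPM).

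In vascular endothelial-like cells 42 of the list were measured between NM losartan and uninjured, with 14 higher and 14 lower. Apln, a ligand known from endothelial tip cells, had 7 UMIs (22.4 CPM) uninjured, 3 (100 CPM) in NM saline and 217 (698 CPM) in NM losartan, 31.1-fold (14.8 to 78.3) above uninjured, with 92 of the 217 in 1 cell. Without the mixed barcode it was 512 CPM. Cxcr4 had 0 and 9 UMIs, and Adm stood at 16.03 and 113 CPM (7.02-fold). The receptor Aplnr had 16 and 1 UMIs, Epas1 was 5.05-fold lower (699 and 138 CPM) and Adamts1 4.41-fold lower (539 and 122 CPM).

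The genes whose level was most like that of a member over the 17 pairs of library and class with at least 20 cells are given as a description, since pairs of one library share depth and free RNA. For Vegfa they were Ftl1-ps1 (r = 0.925), a pseudogene copy of the ferritin light chain whose reads may be shared with Ftl1, then Ftl1 itself (0.893), the chemokine Cxcl2 (0.873), Basp1 (0.870) and Thbs1 (0.868). For Flt1 they were Cavin2 (0.944), Adgrf5 (0.942), Gm12002 (0.941), Esam (0.922) and Gpr4 (0.921). For Kdr they were Sncaip (0.982), Htr2a (0.976), Ica1 (0.955), Zfp979 (0.945) and Bvht (0.944). For Pgf they were Gsdmd (0.874), Rab21 (0.869), Dok1 (0.852), Gins3 (0.837) and Tmem131 (0.835).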

How the data were processed

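Single-cell counts from 3 mouse cornea and limbus libraries were used, 1 per group. The deposited values are whole-number UMI counts per gene and cell, made by the authors. Per the file headers, Cell Ranger 8.0.0 wrote them, on build GRCm38, per the submitters' processing notes. Whether introns were counted, doublets were taken out earlier, and which gene annotation was used is not given in the sources used here. No per-sample column was left unused. The matrices held 177003042 (uninjured), 83155441 (NM saline) and 92753670 (NM losartan) UMIs.

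The filter asked for 500 or more detected genes per cell and no more than 20% of UMIs from mitochondrial genes. Doublets were called by simulation (2 simulated doublets per cell, removing a share that grows with the number of barcodes), which removed 1334, 334 and 243 cells. Clustering used 2000 variable genes, 30 principal components, 20 neighbours and Leiden clustering at resolution 0.8 (23 clusters, 53 after a second pass, 11 of them unnamed), with classes named from 17 marker lists that contain no member. Naming thresholds, and 2 checks of mixed barcodes (at least 50 UMIs of neutrophil or mural markers), were chosen with the clusters already in view.

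UMIs were summed per library and class and given as CPM with exact Poisson intervals. Intervals are exact conditional binomial for ratios and Clopper-Pearson for shares, at 95%. Genes that reached 10 CPM in either library compared, in classes with at least 10 cells in each, were counted as higher or lower at 1.5-fold of CPM + 5. A count of 0 was replaced by 3 counts over the class for a lower bound. All 10 members are named throughout. From the 53 other genes the text names the 3 with the highest and the 3 with the lowest ratio per class and comparison, and 5 genes by Pearson correlation with Vegfa, Pgf, Kdr and Flt1. The members and lists were chosen with earlier results of these data known.

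The calculation was tested on simulated class sums drawn as Poisson counts, with no variation between cells. The intervals assume such counts, so their coverage checks the calculation only, not how well they suit these data. For NM saline against uninjured epithelial-like cells (8131 genes, 200 changed 3-fold), the intervals held the true ratio for 95.5% of changed and 95.2% of other genes. For NM losartan against NM saline stromal-like cells (8580 genes), they held 97.5% and 95.2%. Alternatives covered the cell filter, doublets, resolution, pseudocount, scaling, thinning, the minimum level, per-cell means and single cells. Python 3.11.15, numpy 2.4.6, scipy 1.17.1, pandas 2.3.3, scikit-learn 1.9.0, igraph 0.11.9, leidenalg 0.10.2 and matplotlib 3.10.9 were used.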

Additional observations from a re-analysis of the deposited data

Results flagged for a closer look

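Flt1, Nrp1 and Nrp2 differed from the uninjured library in opposite directions in different classes. The difference between classes was not tested, since each group is 1 library. Flt1 stood at 84.9 (NM saline) and 42.4 (NM losartan) times the uninjured level in epithelial-like cells, and at 0.326 and 0.259 times in vascular endothelial-like cells. Nrp1 stood at 5.35 (NM saline) and 4.65 (NM losartan) times in epithelial-like cells, against 0.496 and 0.487 in stromal-like cells. In vascular endothelial-like cells Nrp1 stood at 0.239 (0.0487 to 0.714, on 3 UMIs) and 0.322 times. Uninjured and NM losartan cells of that class lay in different subclusters, so subcluster and library cannot be told apart. Under median-of-ratios scaling the stromal Nrp1 difference of NM saline no longer reached 1.5-fold. In macrophage or monocyte-like cells Nrp1 of NM losartan stood at 2.44 (1.18 to 6.09) times the uninjured level, which rests on 12 uninjured cells. Nrp2 stood at 11.1 (NM saline) and 11.9 (NM losartan) times in epithelial-like cells, against 0.3997 in stromal-like cells of NM saline and 0.234 in vascular endothelial-like cells of NM losartan.

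Cells left unnamed (315 in NM saline, 469 in NM losartan) entered no comparison and also carried several members above the level of unnamed cells in the uninjured library. Vegfa stood at 288 CPM in NM saline and 151 CPM in NM losartan, against 4.92 CPM uninjured. Nrp2 stood at 163 and 119 CPM (13.0 uninjured), and Nrp1 at 34.6 and 38.1 CPM (6.57 uninjured). Pgf stood at 39.6 and 25.9 CPM and Esm1 at 26.4 and 19.7 CPM, both with 0 uninjured. Kdr stood at 39.7 CPM (0.657 uninjured) and Vegfc at 22.2 CPM (0 uninjured) in NM losartan. The unnamed cells of the uninjured library lay mostly in clusters 10 and 11 (1018 and 937 cells), which held 2 to 4 cells of each injured library, so these are mostly values of different cells. The injured libraries shared most of their unnamed clusters.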

How the results depend on the processing

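No paired analysis was possible because each group is 1 library. Over 9 alternatives the ratio of Vegfa in epithelial-like cells between NM losartan and NM saline ranged from 0.524 to 0.587. The counts of 4 higher (NM saline against uninjured) and 2 lower (NM losartan against NM saline) members stayed at 4 and 2. The 4 higher members were measured only through the injured libraries, so the steadiness of that count supports nothing. The myeloid share of Vegfa ranged from 63.4% to 64.5% in NM saline and from 32.5% to 34.1% in NM losartan over 4 alternatives. Of the ratios, 47 values stayed within the counting interval of the reported one, 13 moved outside it with the same direction and 1 turned. With cells down to 200 detected genes, Vegfa in NM saline against uninjured was 15.1 in epithelial-like and 3.68 in stromal-like cells, its stromal ratio of NM losartan to NM saline 0.603, and its uninjured epithelial share 44.2%. With doublets kept, the epithelial ratio was 14.6 and the share 46.6%. Median-of-ratios scaling gave stromal Vegfa ratios of 3.78 (NM saline against uninjured) and 0.617 (NM losartan against NM saline), with 0 higher stromal members between the injured libraries. Thinning to 1500 UMIs gave ratios of NM losartan to NM saline of 0.844 in macrophage or monocyte-like and 0.932 in stromal-like cells, 2 higher and 1 lower stromal members, and 1 lower macrophage member, and no value for Kdr in NM saline endothelial-like cells, which then had 0 UMIs. Mean per-cell CPM gave 0.813 for Vegfa in macrophages, and no minimum level gave 4 lower stromal members. Without the cell of each library with the most Kdr, the endothelial ratio was 0.0738 (NM saline against uninjured) and turned to 2.23 (NM losartan against NM saline), from 1 UMI left in NM saline. Alternatives chosen after seeing the data gave, for cluster 8 alone, stromal Vegfa ratios of 5.30 and 0.655, 1 higher member against uninjured, and 0 higher and 1 lower between the injured libraries. With the unnamed subcluster 7.2, macrophage Vegfa was 0.767 with 1 higher member. For these values the cause was not tested. Depth limits the 11 vascular endothelial-like (29886 UMIs) and 18 Schwann-like cells (21841 UMIs) of NM saline.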

Other observations

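Dendritic-like and mural-like cells were also compared for the 53 other angiogenic genes. In dendritic-like cells 15 were measured between NM losartan and NM saline, with 2 higher and 5 lower. Notch1 stood at 5.35 CPM in NM saline and 12.3 CPM in NM losartan, and the semaphorin receptor Plxna1 at 8.32 and 18.9 CPM. Egln3, a hypoxia-inducible prolyl hydroxylase, was 6.16-fold lower in NM losartan (29.1 and 4.73 CPM), in the same direction as in macrophage or monocyte-like cells. Dcn stood at 224 and 21.7 CPM, and 4 stromal markers summed in these cells at 0.509% and 0.116% of their stromal level.

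In mural-like cells 35 were measured between NM losartan and uninjured, with 11 higher and 13 lower. The chemokine Cxcl12 was 13.3-fold lower in NM losartan (336 and 25.4 CPM), and the Notch target genes Hey2 (56.1 and 2.82 CPM) and Hey1 (29.4 and 2.82 CPM) were the other lowest genes. Dcn (34.7 and 1373 CPM), Plaur (2.67 and 87.4 CPM) and Fgf2 (10.7 and 70.5 CPM) were the highest. These cells of NM losartan held 4 stromal markers at 7.41% of the stromal level, against 0.632% in the uninjured library, and the part of that in these values was not tested.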
